A study of Drosophila melanogaster with 6 samples.

Results

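The genes described here are the spermatogenesis and testis genes of Drosophila melanogaster, read in whole male pharate adults with and without lysine 27 of the histone variant H3.3. They were taken by name: every gene whose symbol begins with Mst (male-specific transcript) or S-Lap (sperm leucyl aminopeptidase), and a list of 33 genes of meiotic arrest, meiosis, sperm tail and spermatid transcription, of which 32 were listed under those symbols. This gave 19 Mst, 7 S-Lap and 32 listed genes, 58 of the 15115 genes with a value. In K27R double mutants, arginine replaced lysine 27 in the hemizygous X-linked H3.3B gene and in both copies of H3.3A on chromosome 2 (yw, H3.3B K27R; H3.3A K27R / H3.3A K27R). In H3.3B K27R males the X-linked gene alone carried the change, and wild type males were yw. The study made the H3.3B and H3.3A changes in different Cas9 strains, both marked y and w. Whether the genotypes share more of their background than these markers is not given. The mutations were made at the endogenous genes by CRISPR/Cas9 and were present in every cell of the animal, so no tissue-specific driver limits where they act. Every animal was a male collected 96 to 108 hours after puparium formation, shortly before eclosion, and RNA was taken from whole animals, 30 males to a library, with 2 libraries per genotype. H3.3B K27R males die mostly as late pharate adults and the rare survivors are infertile, and the RNA-seq asked whether gene expression had changed at that stage. The labels do not say whether the libraries of a genotype came from separate crosses, so p-values measure only the spread between these libraries.

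Spermatogenesis in the fly runs as a single lineage within the testis. A stem cell daughter divides a fixed number of times until bam and bgcn end the amplifying divisions, the resulting spermatocytes grow for days and transcribe most of what the sperm will need, and the meiotic divisions and spermatid differentiation then draw largely on stored mRNA. A testis-specific activator complex (tMAC) and testis homologues of TFIID subunits (tTAFs) switch this spermatocyte programme on, and males lacking either arrest before meiosis. In spermatids the mitochondria fuse and line the growing tail, the axoneme is built, histones give way to protamine-like proteins, and a small set of cup and comet genes is transcribed after meiosis, when most of the genome is silent.

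Libraries held 1535941 to 2118264 reads assigned to genes, with 1915687 in H3.3B K27R replicate 1 and 1591441 in wild type replicate 1, so that depth did not order the genotypes. A transcript of 1 kb with 3 reads would show between 1.42 and 1.95 RPKM (reads per kilobase of exon, scaled to the reads on genes in the library), a limit that covers counting error only. Values in RPKM are per length and can be compared between genes. The lysine change leaves the H3.3 mRNAs in place, and their level is therefore no check of the labels. The study instead inspected the sequence of the reads on the H3.3 genes and reported that it bore out the genotypes. Of the 58 genes, 52 had a mean of at least 1 RPKM over the 6 libraries and were tested with all 11304 such genes. The 6 below this limit were aly, bam, comr, tomb, MstProx and swif, and swif was the only one listed at 0 in every library. All exon bases of swif (100%) are shared with cola on the same strand, also listed at 0 in every library. How reads that fit both were counted is not given, so the level of swif is uncertain. The mean read number per library was at least 30 for 38 of the 58 genes and at least 100 for 26.

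Testis transcripts were prominent in the whole animal. The sperm tail genes Mst98Cb and Mst98Ca, the sperm protein gene ocn and the aminopeptidase gene loopin-1 averaged 367, 292, 308 and 239 RPKM in that order, whereas the regulators that open the programme averaged below 5 RPKM. The label therefore holds for spermatocyte and spermatid transcripts, while markers of the early germ line were low. In any library bam, nos and tut had at most 2 reads, vas at most 7, aub at most 9 and AGO3 at most 12. bgcn had 17 to 47.

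**Figure D1:**
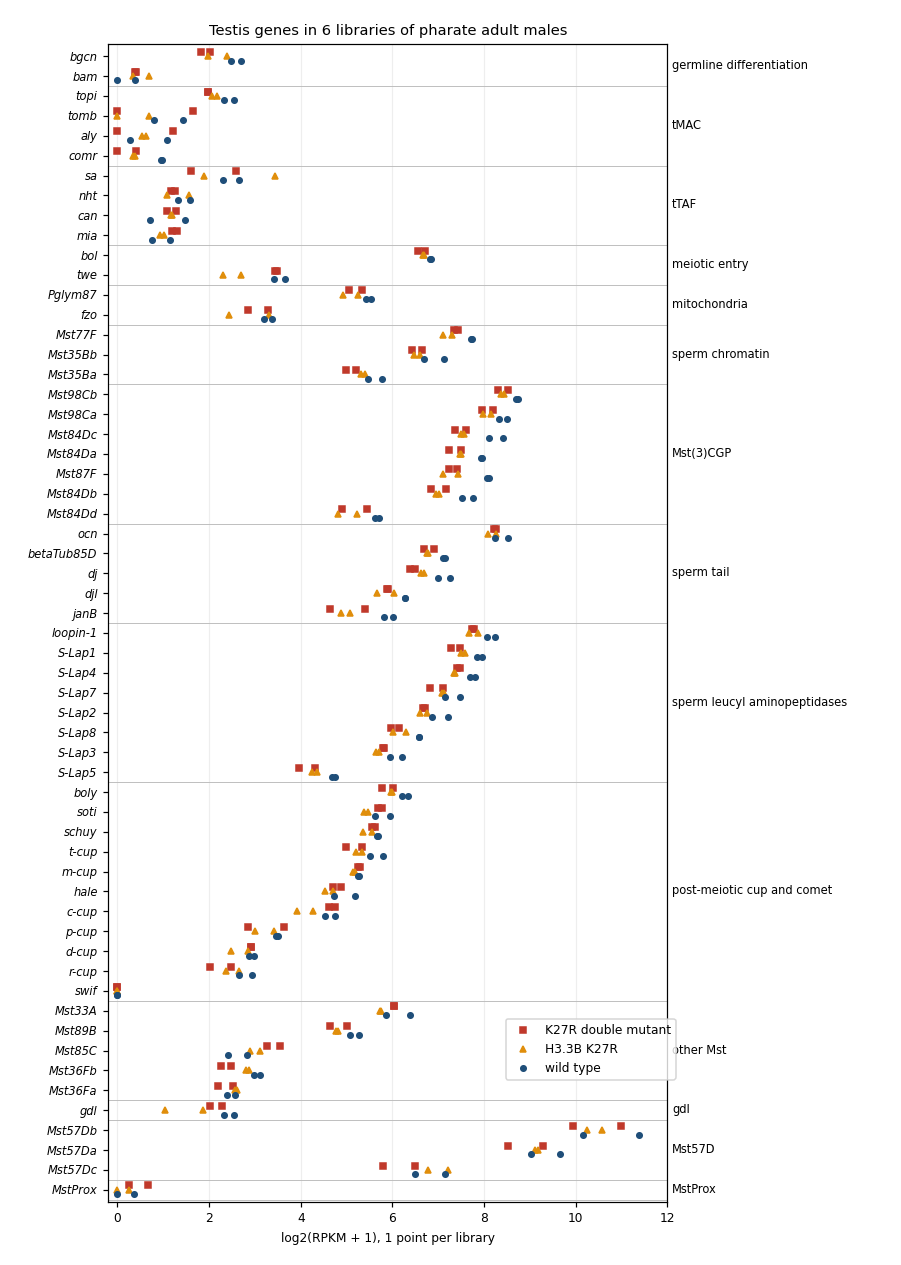
Level of each of the 58 genes in every library, as log2(RPKM + 1) on the x axis, grouped by role (named at the right) and ordered by mean level within a role. Squares are the double mutant, triangles H3.3B K27R and circles wild type, with 1 point per library; for most genes of the sperm tail, Mst(3)CGP and aminopeptidase groups the wild type points lie to the right of all mutant points.

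Most testis genes lay somewhat lower in both mutants than in wild type, and no single one passed the test. In K27R double mutants 47 of the 52 genes tested had a log2 fold change below 0 (50.1% of all genes tested), with a median of -0.34, or 0.788-fold, against -0.0005 over all 11304 genes. In H3.3B K27R males 46 of the 52 lay below 0 (52.1% of all genes), with a median of -0.36, or 0.777-fold, against -0.02 over all genes. Both mutants were compared with the same 2 wild type libraries, so that the likeness of these medians is not independent. Whole-animal RNA cannot tell apart fewer cells of the male germ line and less RNA in each cell.

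None of the 52 was called at the thresholds of an adjusted p below 0.01 (limma, Benjamini-Hochberg over all genes) and an absolute log2 fold change above 1, in either mutant. Of all genes tested, 0.133% were called in the double mutant and 0.00885% in H3.3B K27R males. At an adjusted p below 0.05 with no limit on the fold, the count was again 0 of 52 in both, against 0.832% and 0.0619% of all genes; the smallest adjusted p among the testis genes was 0.0804 in the double mutant and 0.170 in H3.3B K27R males. A voom fit of the recovered reads, read at this threshold after seeing the data, gave 4 testis genes with lower levels in K27R double mutants (Mst84Dc, Mst87F, S-Lap1 and dj), where 0.787% of all genes were lower and 1.06% higher, and 0 in H3.3B K27R males, where 0.0708% were lower and 0.0885% higher. At an unadjusted p below 0.05, 21 of the 52 (40.4%) were lower in K27R double mutants, where 7.59% of all genes were, and 1, Mst85C, was higher, where 7.19% of all genes were. In H3.3B K27R males 23 of the 52 (44.2%) were lower and 0 higher, against 8.14% and 4.22% of all genes. These counts rest in part on single libraries. Both fell without wild type replicate 2, while the medians were then -0.31 and -0.28. The count for H3.3B K27R also fell without H3.3B K27R replicate 1 or 2. For those fits the share of all genes was not computed.

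The order of the libraries shows the same lean without a model. In K27R double mutants both libraries lay below both wild type libraries for 35 of the 52 genes (67.3%; 22.2% of all genes), and above both for 2 (3.85%; 22.4% of all genes), Mst85C and mia. In H3.3B K27R males these counts were 41 (78.8%; 25.3% of all genes) and 2 (19.6% of all genes), Mst85C and Mst36Fa. All 4 mutant libraries lay below both wild type libraries for 33 of the 52 genes (63.5%; 12.1% of all genes) and above both for 1, Mst85C (9.59% of all genes). With the wild type mean of each gene set to 0, the median of the 52 genes was -0.35 and -0.34 in the double mutant libraries and -0.31 and -0.36 in the H3.3B K27R libraries, against -0.06 and 0.06 in the wild type libraries themselves. Together the 52 genes took 0.575% and 0.570% of double mutant reads, 0.577% and 0.568% of H3.3B K27R reads and 0.720% and 0.737% of wild type reads. Both wild type shares were above the 4 mutant shares. Without the 3 Mst57D genes, which belong to the accessory gland, the shares were 0.542% and 0.507% of double mutant reads, 0.525% and 0.522% of H3.3B K27R reads and 0.637% and 0.695% of wild type reads. The exact binomial 95% interval of the share in wild type replicate 1, all 52 genes taken, ran from 0.707% to 0.733%, and covers counting error only.

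**Figure D2:**
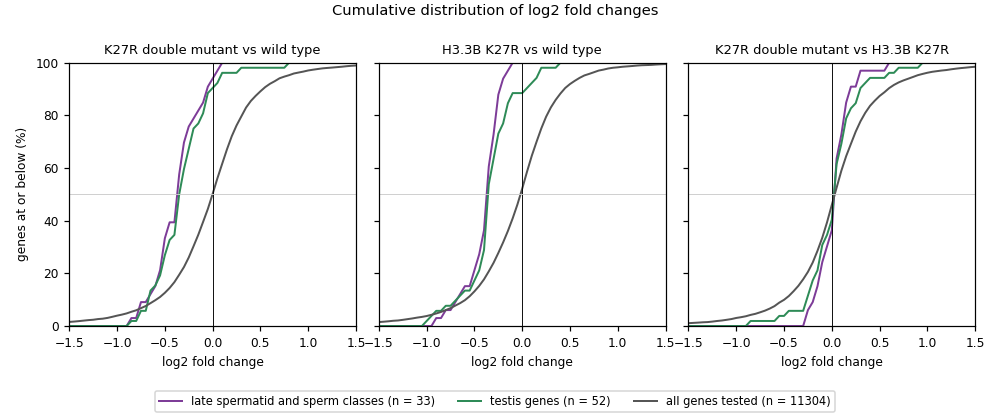
Cumulative share of genes (y axis, percent) at or below each log2 fold change (x axis) for the late spermatid and sperm classes (33 genes), all testis genes tested (52) and all genes tested (11304), in the 3 comparisons of genotypes. Against wild type the testis gene curves are displaced to the left by about the medians of -0.34 and -0.36, and between the 2 mutants the median was 0.01.

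The genes that start the programme were too low for a firm value. bgcn, the partner of bam at the end of the amplifying divisions, had 2.53 and 3.08 RPKM in double mutant, 4.28 and 2.95 RPKM in H3.3B K27R and 4.53 and 5.52 RPKM in wild type libraries. All mutant libraries were below both wild type libraries, on 17 to 47 reads, and the log2 fold changes were -0.66 ± 0.28 in the double mutant and -0.39 ± 0.28 in H3.3B K27R males (± SE; adjusted p 0.343 and 0.606). topi, a zinc finger subunit of tMAC, had 2.93 and 2.95 RPKM in double mutant, 3.15 and 3.53 RPKM in H3.3B K27R and 4.03 and 4.81 RPKM in wild type libraries, again lower in every mutant library on 12 to 27 reads, with log2 fold changes of -0.46 ± 0.25 and -0.32 ± 0.25 (adjusted p 0.474 and 0.651). The other tMAC subunits aly, comr and tomb had between 0 and 5 reads in each library, within the floor of counting for most of them.

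The tTAF genes, testis homologues of the TFIID subunits Taf5 (can), Taf6 (mia), Taf8 (sa) and Taf4 (nht), showed no common direction. sa, the highest of them, had 5 and 2.04 RPKM in double mutant, 2.73 and 9.79 RPKM in H3.3B K27R and 5.26 and 3.95 RPKM in wild type libraries. Its highest and its lowest values were both in mutant libraries, on 3 to 15 reads, and the log2 fold changes were -0.38 ± 0.56 in the double mutant and 0.19 ± 0.56 in H3.3B K27R males. can had 1.42 and 1.10 RPKM in double mutant, 1.24 and 1.27 RPKM in H3.3B K27R and 0.638 and 1.76 RPKM in wild type libraries, and the groups overlapped. mia had 1.45 and 1.27 RPKM in double mutant, 1.02 and 0.911 RPKM in H3.3B K27R and 1.22 and 0.690 RPKM in wild type libraries; the double mutant lay above wild type and H3.3B K27R overlapped it, on 3 to 5 reads in each library. Over the 4 tTAF genes the median log2 fold change was -0.08 in the double mutant and 0.05 in H3.3B K27R males, and the smallest adjusted p was 0.787 and 0.928.

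Both genes of meiotic entry are given by library, and they differed from each other. bol was measured on 1026 to 1738 reads in a library, but twe on 18 to 49, a depth like that of bgcn. bol (boule), an RNA-binding protein that permits translation of twe, had 104 and 93.0 RPKM in double mutant, 100.3 and 103 RPKM in H3.3B K27R and 112 and 114 RPKM in wild type libraries. The mutant libraries lay below both wild type libraries by a small margin, with log2 fold changes of -0.21 ± 0.10 in the double mutant and -0.16 ± 0.10 in H3.3B K27R males (adjusted p 0.432 and 0.577). twe (twine), the Cdc25 phosphatase of the male meiotic divisions, on 2L 16259414 to 16261877 (BDGP6), had 9.79 and 10.1 RPKM in double mutant, 3.95 and 5.51 RPKM in H3.3B K27R and 11.6 and 9.72 RPKM in wild type libraries. H3.3B K27R stood below the other 2 genotypes, on 18 and 21 reads against 44 and 49 in wild type, and the double mutant overlapped wild type. The log2 fold change of twe was -1.04 ± 0.22 in H3.3B K27R males (adjusted p 0.216; 0.443-fold on group means) and -0.09 ± 0.22 in K27R double mutants (adjusted p 0.898), so the gene missed the test in both. Its exons share 98 bases (4.12%) with EndoGI on the other strand.

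Neither Pglym87 nor fzo had an unadjusted p below 0.05 in either mutant. Pglym87, a phosphoglycerate mutase paralogue, had 31.9 and 39.6 RPKM in double mutant, 37.0 and 29.3 RPKM in H3.3B K27R and 45.2 and 41.8 RPKM in wild type libraries. Every mutant library was below both wild type libraries, and the log2 fold changes were -0.28 ± 0.17 and -0.39 ± 0.17 in the double mutant and H3.3B K27R males (adjusted p 0.510 and 0.426). The mean level of fzo (fuzzy onions), the GTPase that fuses mitochondria after meiosis, was 7.48 ± 1.74 RPKM in double mutant, 6.62 ± 3.19 RPKM in H3.3B K27R and 8.71 ± 0.801 RPKM in wild type libraries (SD, n = 2 each), and both mutants overlapped wild type, with log2 fold changes of -0.21 ± 0.33 and -0.41 ± 0.33.

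The 3 genes of sperm chromatin, the protamine genes Mst35Ba and Mst35Bb and Mst77F, another protein that compacts the sperm nucleus, were lower in both mutants. For each of them all 4 mutant libraries lay below both wild type libraries (12.1% of all genes did). Mst77F, the most abundant, on 3L 20816901 to 20818027 overlapping Pka-R1 on the other strand without shared exon bases, had 172 and 161 RPKM in double mutant, 136 and 158 RPKM in H3.3B K27R and 209.5 and 212 RPKM in wild type libraries. The gap between wild type and each mutant exceeded the spread within each genotype. The log2 fold changes were -0.34 ± 0.11 in the double mutant (adjusted p 0.252) and -0.52 ± 0.11 in H3.3B K27R males (adjusted p 0.216). Over the 3 genes the median was -0.37 in both mutants. The protamine genes are near-identical neighbours, and how reads that fit both were counted is not given in the sources used here, so the split between them is uncertain.

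The Mst(3)CGP family lay lowest of the groups with at least 3 genes in both mutants. These 7 small genes encode sperm tail proteins with repeats of cysteine, glycine and proline, are transcribed in spermatocytes and are translated only days later in elongating spermatids. In each mutant all 7 lay below wild type in both libraries, where 22.2% and 25.3% of all genes did. The median log2 fold change was -0.59 (0.666-fold) in the double mutant and -0.65 (0.638-fold) in H3.3B K27R males. Of the 7, 6 and 7 were lower at an unadjusted p below 0.05 (7.59% and 8.14% of all genes), and 0 passed the adjusted threshold. Mst87F, on 3R 13827151 to 13828008, had 169 and 149.6 RPKM in double mutant, 136 and 171 RPKM in H3.3B K27R and 274 and 266 RPKM in wild type libraries. No mutant library came near the wild type values, and the log2 fold changes were -0.76 ± 0.14 in the double mutant (adjusted p 0.0804) and -0.82 ± 0.14 in H3.3B K27R males (adjusted p 0.170). Mst84Dc had 194 and 165 RPKM in double mutant, 179.8 and 189 RPKM in H3.3B K27R and 338 and 274 RPKM in wild type libraries, with log2 fold changes of -0.76 ± 0.14 and -0.72 ± 0.14 (adjusted p 0.0804 and 0.201).

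Within the family the size of the difference varied. Mst84Da had 149.8 and 179.5 RPKM in double mutant, 177 and 181 RPKM in H3.3B K27R and 245 and 248 RPKM in wild type libraries, and its log2 fold changes were -0.59 ± 0.12 and -0.46 ± 0.12 in the double mutant and H3.3B K27R males (adjusted p 0.0927 and 0.251). The Mst98C pair was the most abundant and had the smallest differences. Mst98Cb had 369 and 317 RPKM in double mutant, 347 and 331 RPKM in H3.3B K27R and 416 and 424 RPKM in wild type libraries, with log2 fold changes of -0.30 ± 0.11 and -0.31 ± 0.11, and Mst98Ca had 291 and 246 RPKM in double mutant, 281 and 252 RPKM in H3.3B K27R and 318 and 361 RPKM in wild type libraries, with -0.34 ± 0.13 and -0.35 ± 0.13. The groups did not overlap for either gene. The Mst84D genes and MstProx sit together on 3R between 7363307 and 7369305. There Mst84Da shares 269 bases of exon, 75.1% of its own, with MstProx on the other strand. MstProx had 0 to 3 reads in a library. The family members resemble each other, and reads that fit several of them were not resolved here.

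Genes of the sperm tail outside that family were also lower, apart from ocn. betaTub85D (the testis beta-tubulin of the meiotic spindle and the axoneme), dj (don juan), djl and janB lay below wild type in all 4 mutant libraries (12.1% of all genes did). In each mutant 4 of the 5 genes were lower at an unadjusted p below 0.05 (7.59% and 8.14% of all genes). The medians were -0.38 in the double mutant and -0.43 in H3.3B K27R males. janB (janus B), a sperm protein encoded on 3R 30037984 to 30038728, had 41.0 and 24.0 RPKM in double mutant, 28.4 and 32.9 RPKM in H3.3B K27R and 55.2 and 63.9 RPKM in wild type libraries. It was the gene with the largest difference in K27R double mutants, at 0.546 of the wild type mean, yet its 2 libraries there were far apart. The log2 fold changes were -0.90 ± 0.25 in the double mutant (adjusted p 0.188) and -0.94 ± 0.25 in H3.3B K27R males (adjusted p 0.266). janB shares 107 bases of exon, 18.8% of its own, with janA on the same strand; janA, which is not restricted to the testis, had a log2 fold change of -0.15 ± 0.14 in K27R double mutants. ocn (ocnus), a paralogue of janB beside it, had 305 and 298 RPKM in double mutant, 272 and 306 RPKM in H3.3B K27R and 300.5 and 365 RPKM in wild type libraries, so that the groups overlapped, and its log2 fold changes were -0.14 ± 0.13 and -0.20 ± 0.13 (adjusted p 0.685 and 0.571).

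The sperm leucyl aminopeptidases, abundant proteins of the mitochondrial derivatives that run along the tail, lay close together. The 8 genes averaged between 20.2 and 239 RPKM. All 8 lay below wild type in both libraries of each mutant, where 22.2% and 25.3% of all genes did. In K27R double mutants the log2 fold changes lay between -0.57 and -0.27 around a median of -0.37, and in H3.3B K27R males between -0.42 and -0.21 around a median of -0.38. Of the 8, 6 and 7 were lower at an unadjusted p below 0.05 (7.59% and 8.14% of all genes), and the smallest adjusted p was 0.116 and 0.244. loopin-1, the highest, had 212 and 219.8 RPKM in double mutant, 233 and 202 RPKM in H3.3B K27R and 265 and 300.4 RPKM in wild type libraries. Its log2 fold changes were -0.38 ± 0.12 in the double mutant and -0.38 ± 0.12 in H3.3B K27R males (adjusted p 0.224 and 0.313). The genes of the group are paralogues, and reads that fit more than 1 of them may have been counted for either or left out.

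Post-meiotic transcripts had a smaller median difference from wild type in K27R double mutants than in H3.3B K27R males, and the difference between the mutants passed the test for none of them. The 10 cup and comet genes tested, named for the place of their mRNA at the far end of the elongating spermatid, were at -0.12 on the log2 scale (median fold change) in K27R double mutants, where 8 lay below 0 and 4 lay below wild type in both libraries. In H3.3B K27R males the median was -0.29 and all 10 lay below wild type in both libraries. Over all genes, 22.2% lay below wild type in both libraries of the double mutant and 25.3% in both of H3.3B K27R. Set side by side, 6 of the 10 were higher in both double mutant libraries than in both H3.3B K27R libraries (25.5% of all genes). In the same way 0 were lower (19.2% of all genes). At an unadjusted p below 0.05, 1 of the 10, c-cup, was higher, where 7.42% of all genes were. boly, the highest of the group, had 53.7 and 63.2 RPKM in double mutant, 62.9 and 61.7 RPKM in H3.3B K27R and 72.9 and 79.4 RPKM in wild type libraries. It was lower in all 4 mutant libraries, with log2 fold changes of -0.38 ± 0.12 and -0.28 ± 0.12 (adjusted p 0.251 and 0.426). c-cup had 25.7 and 23.6 RPKM in double mutant, 14.2 and 18.4 RPKM in H3.3B K27R and 25.6 and 21.9 RPKM in wild type libraries. Here H3.3B K27R stood apart below the other genotypes while the double mutant overlapped wild type, with log2 fold changes of -0.53 ± 0.18 in H3.3B K27R (adjusted p 0.323) and 0.05 ± 0.18 in K27R double mutants (adjusted p 0.923).

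**Figure D3:**
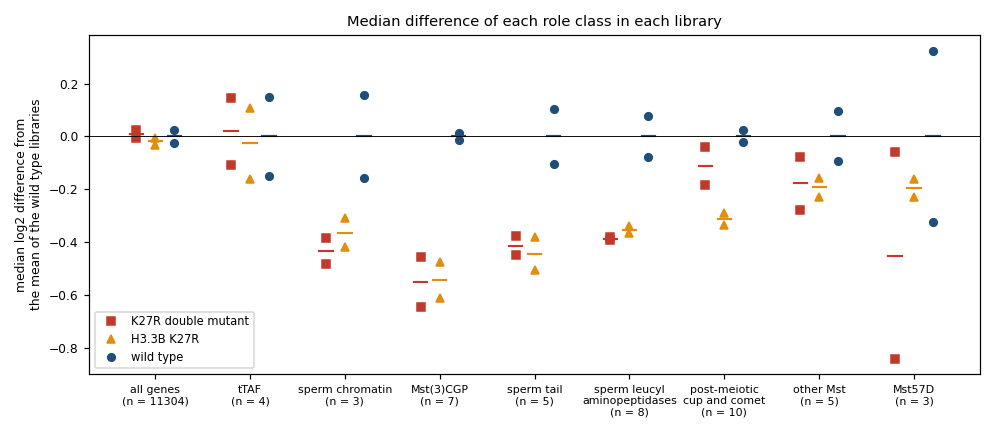
Median, over the genes of each role class, of the log2 difference from the mean of the wild type libraries (y axis), with 1 point per library and a bar at the mean of the 2 libraries; squares are the double mutant, triangles H3.3B K27R and circles wild type, and the number of genes stands under each class; classes with under 3 genes tested are not drawn. Of the classes drawn, the Mst(3)CGP genes lie lowest in both mutants (-0.55 and -0.54 on average), and the libraries of each mutant lie closest together, among the plotted classes, for the aminopeptidases. The tTAF and Mst57D values of mutants and wild type overlap, as do the other Mst values of the double mutant and wild type.

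Of the 5 remaining Mst genes 4 lay below 0 in K27R double mutants and 3 in H3.3B K27R males. Mst36Fb and Mst89B, named after their values were seen, were those with all 4 mutant libraries below both wild type libraries. Mst36Fb had 4.60 and 3.76 RPKM in double mutant, 6.37 and 6.01 RPKM in H3.3B K27R and 6.86 and 7.58 RPKM in wild type libraries, with log2 fold changes of -0.67 ± 0.21 in the double mutant (unadjusted p 0.0190, adjusted p 0.241) and -0.19 ± 0.21 in H3.3B K27R males. Mst89B, whose exons share 105 bases with Mat89Ba on the other strand, had 31.1 and 23.8 RPKM in double mutant, 27.2 and 26.2 RPKM in H3.3B K27R and 32.7 and 37.4 RPKM in wild type libraries, with log2 fold changes of -0.35 ± 0.17 and -0.38 ± 0.17 (adjusted p 0.402 and 0.428). Mst33A had 65 and 65 RPKM in double mutant, 52.1 and 53.0 RPKM in H3.3B K27R and 57.1 and 82.3 RPKM in wild type libraries; the double mutant lay within the wild type range (log2 fold change -0.08 ± 0.18) and H3.3B K27R below it (-0.38 ± 0.18). Mst36Fa had 4.73 and 3.57 RPKM in double mutant, 5.08 and 4.94 RPKM in H3.3B K27R and 4.21 and 4.88 RPKM in wild type libraries, and its log2 fold changes were -0.11 ± 0.24 in the double mutant and 0.12 ± 0.24 in H3.3B K27R males. Mst85C was the only one of the 52 genes that lay above wild type in all 4 mutant libraries. It had 8.58 and 10.7 RPKM in double mutant, 6.42 and 7.68 RPKM in H3.3B K27R and 4.29 and 6.13 RPKM in wild type libraries, on 10 to 24 reads, with log2 fold changes of 0.78 ± 0.24 in the double mutant (adjusted p 0.227) and 0.39 ± 0.24 in H3.3B K27R males (adjusted p 0.562). Its exons share 7 bases with Nmdmc on the other strand, whose log2 fold change in K27R double mutants was -0.29 ± 0.31.

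gdl (gonadal), transcribed in both the testis and the ovary, had 3.05 and 3.88 RPKM in double mutant, 2.67 and 1.06 RPKM in H3.3B K27R and 4.81 and 4.02 RPKM in wild type libraries. It lay below wild type in all 4 mutant libraries, but on 2 to 10 reads, and the log2 fold changes were -0.28 ± 0.36 in the double mutant and -0.97 ± 0.36 in H3.3B K27R males (adjusted p 0.772 and 0.348). It shares 82.1% of its exon bases with gdl-ORF39 on the same strand, which was listed at 0 in every library.

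**Figure D4:**
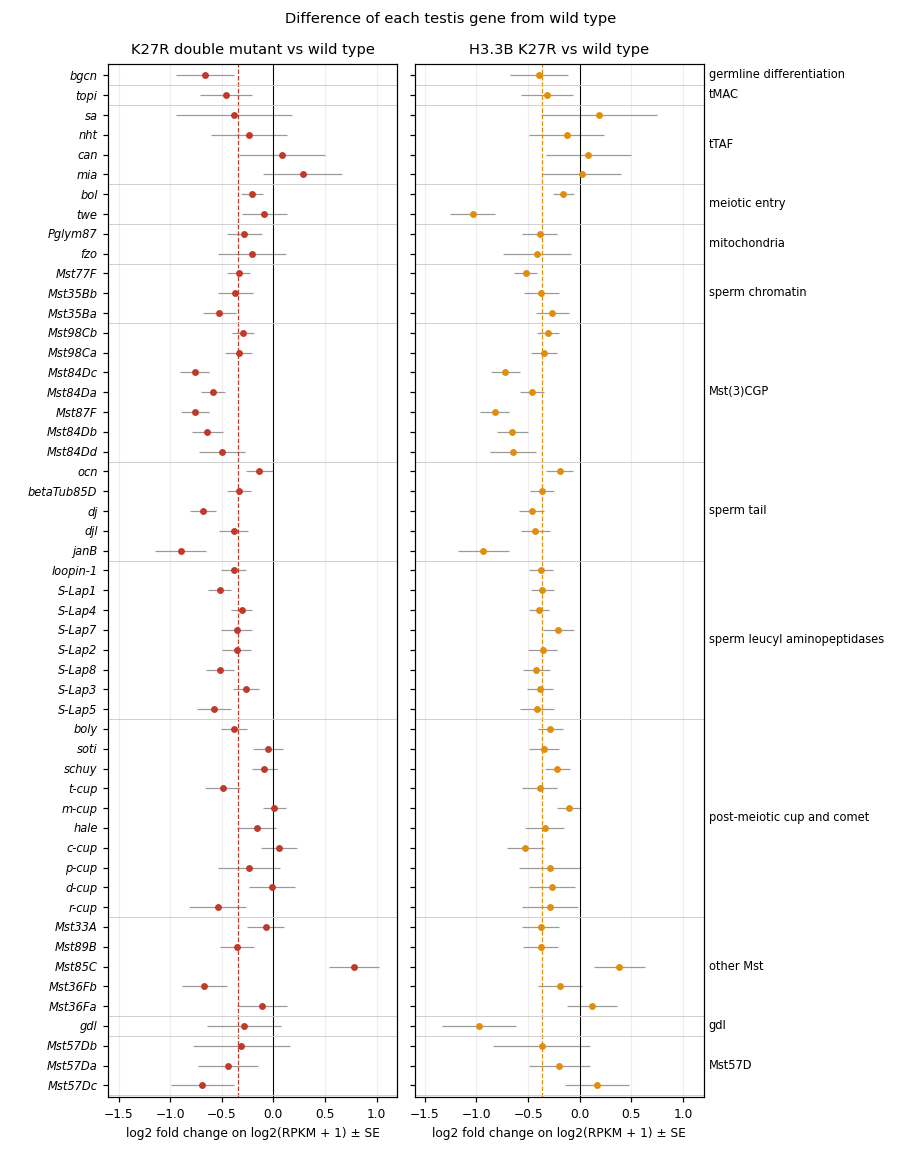
Log2 fold change with its standard error (x axis) of each of the 52 genes tested, in the double mutant (left) and H3.3B K27R (right) males against wild type, grouped by role. Dashed lines mark the medians of -0.34 and -0.36; the points of janB, Mst84Dc and Mst87F lie left of -0.7 in both panels, twe and gdl do so in H3.3B K27R only, and Mst85C lies to the right of 0 in both.

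Some of the genes taken by name were not testis genes. Mst57Da, Mst57Db and Mst57Dc, on 3R between 25829321 and 25831899, are transcripts of the male accessory gland, and MstProx encodes a receptor of the Toll family. Mst57Db, the most abundant gene of the set, had 975 and 2031 RPKM in double mutant, 1512 and 1209 RPKM in H3.3B K27R and 2666 and 1145 RPKM in wild type libraries. Mst57Da had 366 and 619 RPKM in double mutant, 577 and 551 RPKM in H3.3B K27R and 806 and 517 RPKM in wild type libraries, and Mst57Dc had 54.2 and 88.5 RPKM in double mutant, 109 and 146 RPKM in H3.3B K27R and 141 and 89.4 RPKM in wild type libraries. For Mst57Da and Mst57Db wild type replicate 1 was the highest of the 6 libraries and double mutant replicate 1 the lowest, and the replicates of wild type, like those of the double mutant, differed by more than the genotype means did. Log2 fold changes of Mst57Db were -0.31 ± 0.47 and -0.37 ± 0.47 in the double mutant and H3.3B K27R males (adjusted p 0.813 and 0.798). For Mst57Da they were -0.44 ± 0.29 and -0.20 ± 0.29, and for Mst57Dc -0.69 ± 0.31 and 0.17 ± 0.31. MstProx was at 0.391 ± 0.294 RPKM in double mutant, 0.0956 ± 0.135 RPKM in H3.3B K27R and 0.145 ± 0.205 RPKM in wild type libraries (SD, n = 2 each) and was not tested. Without these 4 genes the median over the other 49 tested was -0.34 in the double mutant and -0.37 in H3.3B K27R males, and 44 of the 49 lay below 0 in each.

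Markers of other tissues of the male were read beside these values. The summed level of 16 accessory gland genes was 1364 and 2244 RPKM in double mutant, 1825 and 1975 RPKM in H3.3B K27R and 3361 and 1576 RPKM in wild type libraries. It was highest in wild type replicate 1, whereas wild type replicate 2 lay below 3 of the 4 mutant libraries. Gene by gene the median log2 fold change of the list came to -0.51 in K27R double mutants, with 13 of 15 below 0. At an unadjusted p below 0.05, 5 were lower (7.59% of all genes). At that p 1 was higher (7.19% of all genes), Acp53C14a, named after its value was seen. In H3.3B K27R males the median was -0.10, with 11 below 0. There 2 were lower and 0 higher at that p (8.14% and 4.22% of all genes). Of the 15 accessory gland genes tested, 1 was called in K27R double mutants (0.133% of all genes), Acp32CD, singled out after its value was seen. It had 4.84 and 5.28 RPKM in double mutant and 9.67 and 11.6 RPKM in H3.3B K27R libraries. Wild type libraries had 52.4 and 36.6 RPKM. The summed level of 5 flight muscle genes was 9323 and 9752 RPKM in double mutant, 9008 and 9150 RPKM in H3.3B K27R and 9573 and 8896 RPKM in wild type libraries, and overlapped between genotypes. That of 6 genes that mark the somatic cells of the testis, and are active in other tissues too, was 85.1 and 64.4 RPKM in double mutant, 90.8 and 82.5 RPKM in H3.3B K27R and 63.1 and 76.8 RPKM in wild type libraries, with a median log2 fold change of 0.10 and 0.03 over the 5 tested. In each mutant 1 of the 5 lay below 0. Most of this sum is zfh1 and Fas3. zfh1 had 35.8 and 29.2 RPKM in double mutant, 29.5 and 30.9 RPKM in H3.3B K27R and 24.2 and 25.4 RPKM in wild type libraries. At an unadjusted p below 0.05 it alone was higher in the double mutant (7.19% of all genes), and 0 were lower (7.59% of all genes). The 4 ejaculatory duct and bulb genes summed to 1813 and 1756 RPKM in double mutant, 1807 and 1799 RPKM in H3.3B K27R and 2758 and 1931 RPKM in wild type libraries, so that the sum was lower in every mutant library. PebIII carries most of this sum, and it had 1744 and 1607 RPKM in double mutant, 1704 and 1685 RPKM in H3.3B K27R and 2363 and 1708 RPKM in wild type libraries, so that the double mutant overlapped wild type. Est-6 went the other way, with 19.8 and 24.5 RPKM in double mutant, 19.3 and 21.4 RPKM in H3.3B K27R and 13.7 and 8.74 RPKM in wild type libraries, and log2 fold changes of 0.95 ± 0.23 and 0.84 ± 0.23 (adjusted p 0.151 and 0.273). Dup99B was lower in every mutant library, at 46.3 and 103 RPKM in double mutant and 84.2 and 92.6 RPKM in H3.3B K27R libraries. Its wild type libraries had 343 and 212 RPKM (adjusted p 0.0927 and 0.244 in the double mutant and H3.3B K27R males). Over the 4 genes the median log2 fold change was -0.27 in the double mutant and -0.92 in H3.3B K27R males, with 3 below 0 in each. PebIII, Est-6 and Dup99B were named after their values were seen. Of the 7 female germ line markers osk, bcd and Yp1 were listed at 0 in all libraries, Vm26Aa and Yp2 had at most 2 reads and Yp3 at most 6 in any, and grk had 39 to 65 reads in each, at 13.6 to 20.0 RPKM. What part these tissues have in the testis gene values was not tested.

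**Figure D5:**
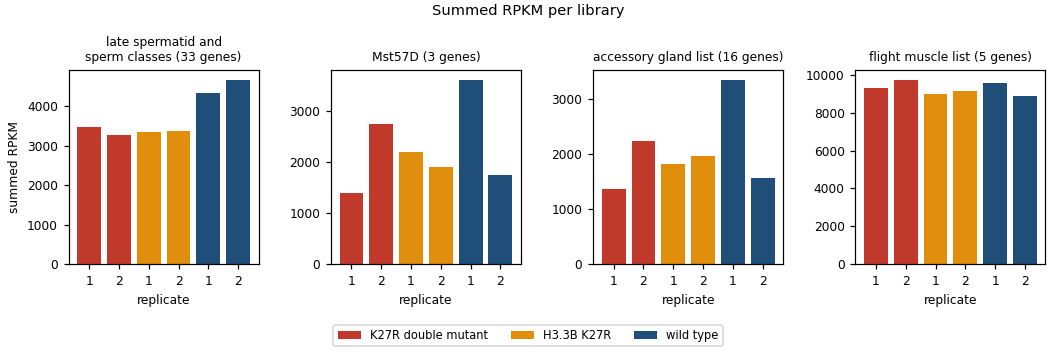
Summed RPKM (y axis, from 0) in each library for the 33 genes of the late spermatid and sperm classes, the 3 Mst57D genes, the accessory gland list and the flight muscle list; bars are single libraries, numbered by replicate, in the double mutant, H3.3B K27R and wild type. The late classes reached 3267 to 3488 RPKM in the 4 mutant libraries, against 4343 and 4681 RPKM in wild type, while the accessory gland and Mst57D sums of mutants and wild type overlap.

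Testis genes that the choice by name had not used were compared with the same fit. Among 12 testis paralogues of mitochondrial proteins the median log2 fold change was -0.30 in the double mutant and -0.45 in H3.3B K27R males, with 11 below 0 in each. Cyt-c-d, the cytochrome c of spermatids, had 124 and 112 RPKM in double mutant, 129 and 99.9 RPKM in H3.3B K27R and 135 and 146 RPKM in wild type libraries. Among 11 testis proteasome subunits the medians were -0.34 and -0.34, with 8 and 11 below 0. The 12 other regulators of spermatocytes had medians of -0.33 and -0.19, led by fest (listed as CG9975), which had 211 and 221 RPKM in double mutant, 225 and 220.0 RPKM in H3.3B K27R and 264 and 285 RPKM in wild type libraries. The 7 other genes of sperm chromatin had medians of -0.30 and -0.24. They include Tpl94D, a transition protein that bridges histones and protamines, which had 72.9 and 77.7 RPKM in double mutant, 65.1 and 76.2 RPKM in H3.3B K27R and 94.4 and 102 RPKM in wild type libraries. They also include HmgZ, a chromatin protein used widely outside the testis, which had 130.0 and 127 RPKM in double mutant, 125 and 158 RPKM in H3.3B K27R and 99 and 119 RPKM in wild type libraries. None of the genes of these 4 lists was called in any comparison. Of the Y-linked fertility genes only Pp1-Y2 and kl-5 were high enough in RPKM to be tested. Their log2 fold changes were 0.25 and -0.32 in the double mutant and -0.54 and -0.27 in H3.3B K27R males. The medians over both genes were -0.04 and -0.40. kl-2 and kl-3, named after their values were seen, were not tested and were lower in all 4 mutant libraries than in wild type. They had 7 to 13 reads against 17 and 32, and 7 to 12 against 17 and 27. Ory, Pp1-Y1 and Ppr-Y had at most 3 reads in any library.

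Between the 2 mutants the testis genes differed little. The median log2 fold change of the double mutant against H3.3B K27R males was 0.01, against 0.03 over all genes, and its sign turned with the scaling of the libraries (-0.04 after centring each library on its median, -0.02 after quantile normalization). None of the 52 was called (0.0619% of all genes were) and none had an adjusted p below 0.05 (0.310% of all genes). At an unadjusted p below 0.05, 2 were higher in the double mutant (7.42% of all genes), twe and c-cup, and 1 was lower (5.06% of all genes), Mst57Dc. The log2 fold change of twe in the double mutant against H3.3B K27R males was 0.95 (95% interval 0.42 to 1.48, adjusted p 0.157), that of c-cup 0.58 (0.16 to 1.00, adjusted p 0.256) and that of Mst57Dc -0.85 (adjusted p 0.327). For Mst87F, among the lowest in both mutants, it was 0.06 (95% interval -0.27 to 0.40), and for janB 0.04 (-0.56 to 0.64), so that differences of up to these sizes between the mutants cannot be told from none.

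The testis genes were unevenly placed in the genome. Of the 52 tested, 24 (46.2%) lie on 3R, which holds 24.7% of the 11156 genes tested that the BDGP6 annotation places, and 2 (3.85%) on the X chromosome, which holds 15.9%. The median log2 fold change was -0.34 and -0.37 for the 24 genes on 3R, -0.28 and -0.36 for the 11 on 3L, -0.24 and -0.37 for the 9 on 2L, -0.45 and -0.39 for the 6 on 2R and -0.39 and -0.29 for the 2 on X, in the double mutant and H3.3B K27R males. Several sit beside a relative, in pairs or in the clusters at Mst84D and Mst57D, so that the 52 genes are not independent of each other. For 13 of the 52 the exons overlap those of another annotated gene. The other 39 had medians of -0.36 in the double mutant and -0.35 in H3.3B K27R males, with 36 and 34 below 0.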

How the data were processed

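RNA-seq libraries were made from whole male pharate adults (30 males and 100 ng of total RNA each, with ERCC spike-ins, NuGEN Ovation kit) of 3 genotypes, 2 libraries each, grouped by the labels. Per the labels and the study's methods, the authors aligned reads with STAR 2.5.2b to a modified dm3 genome, in which single copies stand for the repeated histone genes, and counted them with Subread 1.28.1; SAMtools 1.3.1 and DESeq2 1.18.1 are also named in the submitters' processing notes. The authors merged the technical runs of 1 library, replicate 1 of H3.3B K27R. Whether counting used strand, and how reads that fit several genes were treated, is not given in the sources used here. The RPKM values were computed by the authors for 15115 genes from counted reads, gene length and the reads on genes in each library. The deposited signal column, a mean over libraries of reads divided by size factors, was used only to set the scale of each library when whole reads were recovered from RPKM: 100% of 73342 values above 0 lay within 0.01 of a whole number, and the largest distance was 0.006. The authors' fold changes, statistics and p values, deposited beside it, were not used.

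Differential expression was tested with limma 3.58.1 (R 4.3.3; lmFit, eBayes with a mean-variance trend) on log2(RPKM + 1), so that fold changes of low genes are understated, for the 11304 genes with a mean of at least 1 RPKM. Genotype was the only factor, the 3 genotypes shared 1 estimate of the spread (3 residual and 3.43 prior degrees of freedom), and p values were adjusted by Benjamini-Hochberg over all genes tested. The study's thresholds were kept. With 2 libraries against 2 no exact permutation test can go below p = 0.333. The fit was tested on simulated data, with changes larger than the medians of the testis genes. That test therefore does not show whether differences of the size seen here would be called. In these testis genes the chi-square per gene between replicate libraries was 4.46, 1.49 and 7.36 for the K27R double mutant, H3.3B K27R and wild type, so no library was a copy of another. The genes and lists were chosen with earlier results of these data known. Genes given by library were those at an adjusted p below 0.05, the 8 with the highest mean RPKM, the 4 with the largest and the 4 with the smallest fold change against wild type in each mutant, and the highest of each role class; other genes are given by counts and ranges, and dj, djl, betaTub85D, fzo and nht are named with their class. Gene positions come from BDGP6 release 115 and were not converted from dm3. Alternatives were other pseudocounts, filters, scalings, factors, weights and thresholds, and each library left out in turn.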

Additional observations from a re-analysis of the deposited data

How the results depend on the processing

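In each of the 3 comparisons 0 testis genes were called at the main thresholds under all alternatives run. With voom weights on recovered reads and an adjusted p below 0.05 without a limit on the fold, a combination chosen after seeing the data, 4 were lower in K27R double mutants, Mst84Dc (adjusted p 0.0391), Mst87F (0.0302), S-Lap1 (0.0356) and dj (0.0287), where 0.787% of all genes were. The medians against wild type stayed below 0 throughout. When each library was left out in turn, the single library left in a group being taken to vary like the others, they ranged from -0.36 to -0.31 in K27R double mutants and from -0.42 to -0.28 in H3.3B K27R males, and between the mutants from -0.0165 to 0.0578. Between the mutants the median was -0.0379 after median centring and -0.0205 after quantile normalization. The number lower at an unadjusted p below 0.05 was 13 in K27R double mutants and 11 in H3.3B K27R males without the mean-variance trend, and ranged from 9 to 20 and from 10 to 24 when a library was left out; the cause was not tested. The number with all 4 mutant libraries below wild type was 28 after quantile normalization and 32 after median centring.

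Some genes given by library changed sign when a library was left out. These were, in K27R double mutants, Mst33A (-0.34 to 0.18), Mst36Fa (-0.28 to 0.0492), Mst57Db (-0.92 to 0.30), c-cup (-0.0545 to 0.16), can (-0.29 to 0.46), ocn (-0.27 to 0.0040), sa (-0.87 to 0.11) and twe (-0.20 to 0.0314). In H3.3B K27R males they were Mst57Da (-0.52 to 0.12), Mst57Db (-0.98 to 0.24), Mst57Dc (-0.16 to 0.49), can (-0.29 to 0.46), mia (-0.18 to 0.22) and sa (-0.58 to 0.95). Between the mutants they were Mst87F (-0.11 to 0.23; -0.0115 after quantile normalization) and janB (-0.34 to 0.41; -0.0150 after median centring and -0.0125 after quantile normalization). The cause was not tested. The other fold changes against wild type that were computed under the alternatives, for 26 testis genes in all, kept their sign.

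The libraries share only a replicate number. With a replicate block 0 genes were called, and 19 and 21 were lower at an unadjusted p below 0.05 in K27R double mutants and H3.3B K27R males. Replicate differences of K27R double mutants and wild type were correlated at -0.21 over genes. With the numbers of the double mutants swapped in the block, chosen after seeing the data, these counts were 22 and 21 and 0 genes were called. The share of all genes lower at that p was not computed with either block. The tTAF genes, on 2 to 15 reads in each library, had standard errors of 0.36 to 0.56, so that a difference of the size seen in the sperm genes was not detectable at this depth.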
